A study of Mus musculus with 6 samples.

Results

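The nuclear-encoded subunits of the mitochondrial respiratory chain and ATP synthase were examined in splenic red pulp macrophages from Bach2 knockout and wild-type mice. Members were taken by symbol: probes whose RefSeq name begins with Ndufa, Ndufb, Ndufc, Ndufs or Ndufv and a digit, with Uqcr, Cox4i, Cox5, Cox6, Cox7, Cox8 or Atp5, or is Sdha, Sdhb, Sdhc, Sdhd or Cyc1. The rule found 85 genes, read by 114 probes, of 20014 genes named on the array: 37 of complex I, 4 of complex II, 9 of complex III, 18 of complex IV and 17 of complex V. Of these, 81 were tested, and all 81 were well above background on 6 of 6 arrays. The other 4, Cox7b2, Cox8b, Cox8c and Ndufa4l2, were not well above background on any array. No probe was named for 3 further coding symbols, Ndufb1, Ndufb4b and Ndufb4c, or for any of the 18 pseudogene symbols that fit the rule. Symbols sort members only by name: Ndufa4, counted here with complex I, is also described as a complex IV subunit, and Cox7a2l as a factor of respiratory supercomplexes.

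The respiratory chain passes electrons from NADH (complex I) and succinate (complex II) through ubiquinone to complex III, then through cytochrome c to complex IV and oxygen, and complex V uses the resulting proton gradient to make ATP. Most subunits are encoded in the nucleus, while a small hydrophobic core is encoded in mitochondrial DNA, for which no probe was named here. Many of the redox centres are hemes or iron-sulfur clusters, so the chain is one of the destinations of cellular iron and heme. Red pulp macrophages engulf aged erythrocytes and recycle their heme iron, and BACH2 is a transcriptional repressor that pairs with small MAF proteins and whose DNA binding is regulated by heme. The series' title puts the comparison in the setting of heme and iron homeostasis.

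RNA was measured on 6 one-colour Agilent arrays, each with sorted red pulp macrophages of 1 mouse. The wild-type group was 3 C57BL/6 mice, of which replicate 3 was female and the others male. The knockout group was 3 male C57BL/6 mice labelled Bach2 knock out. All were 8 to 9 weeks old and no treatment is named. The labels do not say which part of Bach2 is deleted, whether the deletion is confined to some cells, or which markers defined the sort gate. Wild type 3 and knockout 3 share the tag P6, whose meaning is not stated. The 6 arrays lay on 1 slide. Wild type filled row 1 and knockout row 2, which means that an effect of the row cannot be told apart from one of genotype. Each of the 3 columns held 1 array of either genotype. Column 3 set the female wild type 3 against the male knockout 3, so sex and genotype cannot be told apart there.

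Levels are log2 signals relative to the 75th percentile of all probes on the same array, so that 0 is the level of that percentile and a difference of -1 is a halving. That percentile ran from 763.9 to 2664.2 signal units, and 37.5% to 51.5% of probes were well above background, with both extremes of the percentile in column 3. The number of arrays limits the precision: the median standard error of a member's genotype difference was 0.51. Bach2 itself was at -0.90, 0.02 and -1.35 in the wild-type and at -2.24, -3.72 and -1.15 in the knockout arrays, a difference of -1.62 ± 0.71 (SE, limma, n = 3 and 3). The array labelled knockout 3 thus lay within the wild-type range for Bach2, and whether the probe lies in the deleted part is not known. Of 8 red pulp macrophage markers, 7 were tested. The mean over these 7 lay between 6.61 and 7.73 on each array, so the markers of the labelled cell type were present. The dimmest of them, Mertk, had a mean of 4.94 in wild type and 4.68 in knockout. All 7 had differences below 0 (median -0.58), beside 91.0% of the brightest 10% of all tested entries (median -0.31). Within columns 1, 2 and 3 the medians of the macrophage markers were -0.03, -0.62 and -1.43. All 10 T and NK cell markers lay on the other side (median 1.44), with list means of 0.65 to 1.37 in wild type and 1.98 to 3.38 in knockout and no overlap. The 7 tested neutrophil markers had a median difference of 1.16 and the 8 markers of dividing cells one of 0.94, with overlapping list means. The 5 tested erythroid markers had a median of 0.36, also with overlapping list means. Within columns 1, 2 and 3 the erythroid medians were -0.27, 2.13 and -0.54. The part of these other cells in the results below was not tested, and fewer cells of a type cannot be told apart from less RNA per cell.

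NRF1, a transcription factor known to act on promoters of respiratory genes, recognises a GC-rich palindrome, and 5 stretches that carry its core are shown because a larger share of members than of all genes held it. RefSeq start sites were at hand for 68 of the 85 genes (build GRCm38, 250 bases before to 50 after each start, any listed start counted). The core GCGCANGCG, on either strand, was found for 20 of the 68, or 29.4% (95% exact interval 19.0 to 41.7%), and for 7.03% of all 27025 genes in the table. In the 250 bases before the start alone the shares were 20.6% and 5.86%. In the sequences below, written 5′ to 3′ on the strand of the gene, capitals mark the core.
Ndufb4 (complex I, chr16:37654423-37654463, minus strand, core ending 70 bases before the start): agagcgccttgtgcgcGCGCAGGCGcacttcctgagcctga
Ndufs5 (complex I, chr4:123718260-123718300, minus strand, 89 bases before): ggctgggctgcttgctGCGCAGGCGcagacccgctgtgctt
Sdhd (complex II, chr9:50603904-50603944, minus strand, 70 bases before): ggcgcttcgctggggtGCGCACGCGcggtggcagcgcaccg
Cox6a1 (complex IV, chr5:115349051-115349091, minus strand, 108 bases before): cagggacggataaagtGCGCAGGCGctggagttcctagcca
Atp5g2 (complex V, chr15:102671065-102671105, minus strand, 33 bases before): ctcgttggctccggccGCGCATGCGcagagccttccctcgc
The 5 stretches come from genes of 4 complexes, and Ndufb4, Ndufs5 and Cox6a1 have the same 9 letters in the core.

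The other motifs searched, on both strands, were AAGATGGCG, bound by YY1, CCGGAAGT, bound by ETS factors such as GABPA, TGACNNNGC, the core of the antioxidant response element, and TGACTCAGC, a form of the MAF recognition element that BACH factors are known to bind. The YY1 motif was found for 7 of 68 members (10.3%) against 1.64% of all genes, and mostly after the start: only 1 member held it in the 250 bases before. The ETS motif was found for 5 members (7.4%) against 4.31% of all genes. The antioxidant core was found for 9 members (13.2%) against 14% of all genes, and TGACTCAGC for 0 of 68 (exact interval up to 5.3%) against 0.503%. A match is a run of letters and not a shown binding site. The 20 members with the NRF1 core had a median genotype difference of -0.31, 18 of them below 0, and the 46 tested members without it one of -0.28, 44 of them below 0.

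Across the chain, no subunit passed the test between genotypes: limma with Benjamini-Hochberg adjustment over all 18405 tested entries called 0 of 81 members, and 0 entries in all (0.0%). At an unadjusted p under 0.05, 1 member, Cox6a2, passed, or 1.23% of members against 229 entries (1.24%). The count over all entries depended on the setting, with 808 without wild type 1, 398 without knockout 3 and 581 with the array column as a block. The same gene was the only member whose knockout arrays all lay below all wild-type arrays, 1.23% of members against 1.74% of all entries. No member lay above without overlap, against 1.14% of all entries. What the members did share was the sign: 74 of 81 (91.4%) had a difference below 0, against 60.7% of all entries, and their median difference was -0.28 against -0.11. The members were also among the brightest genes of the array, with 73 of 81 in the highest of 4 equal level classes and 65 in the brightest 10% (1841 entries). That brightest 10% had 91.0% of its differences below 0 and a median of -0.31, so the members' share and median were near those of the bright genes at large.

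**Figure D1:**
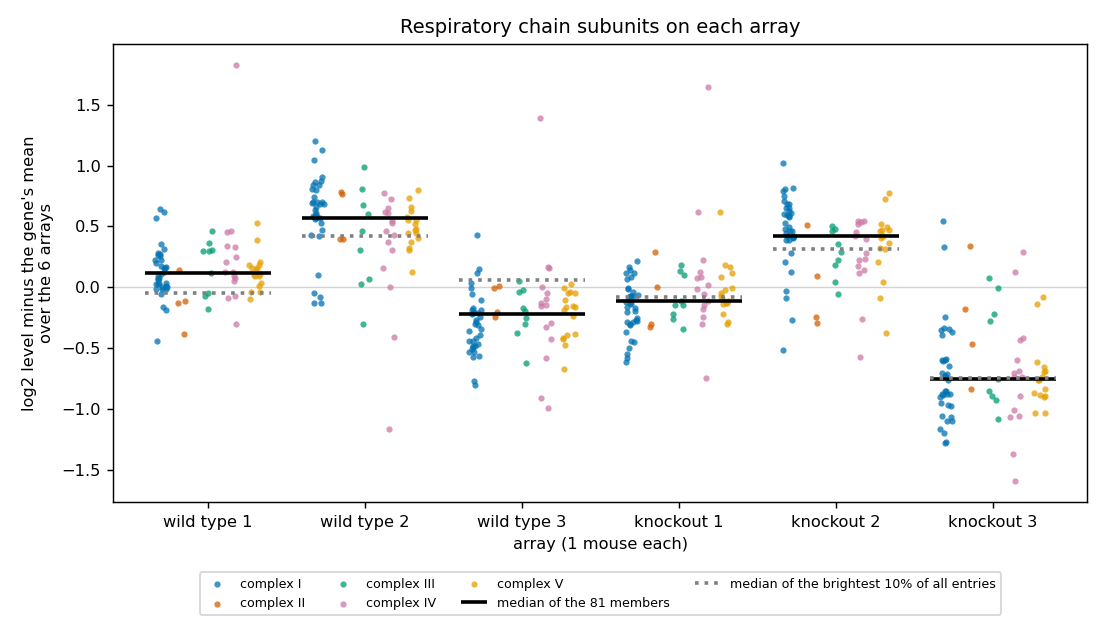
Each point is 1 of the 81 tested subunits on 1 array, as its log2 level minus its own mean over the 6 arrays, coloured by complex. Black bars are the members' medians (0.12, 0.57 and -0.22 in wild type 1 to 3, and -0.11, 0.42 and -0.75 in knockout 1 to 3), and dotted grey bars are the medians of the brightest 10% of all entries, which are likewise high in wild type 2 and knockout 2 and lowest in knockout 3, but higher than the members in wild type 3.

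The subunits moved up and down together from array to array. Set against each gene's own mean, the members' median was 0.12, 0.57 and -0.22 in the wild-type arrays and -0.11, 0.42 and -0.75 in the knockout arrays. Arrays wild type 2 and knockout 2 were high and array knockout 3 was low, so the genotypes overlapped and the spread within a genotype was wider than the difference between them. The array labelled knockout 3 was the lowest of 6 for 65 of 81 members (80.25%), as it was for 73.28% of the brightest 10% and 23.52% of all entries. Wild type 2 was the highest for 50 members (61.73%), against 49.27% and 29.49%. Unscaled signals of the spike-in probes E1A_r60_a22, a20, a135, a107 and a104 differed 11.0- to 29.2-fold between arrays. Unscaled, they were highest on wild type 2, then knockout 2, and lowest on wild type 3. The members' levels are instead relative to the array's 75th percentile, which was 763.9 on wild type 3 and 2664.2 on knockout 3. Set against that percentile, these spike-in probes were likewise highest on wild type 2, then knockout 2, but lowest on knockout 3. The 3 brightest spike-in probes differed 1.2- to 1.4-fold, and E1A_r60_a97 and E1A_r60_3 2.1- and 3.4-fold. Whether the members' pattern shares a source with these probes was not tested. Without knockout 3, the members' median difference was 0.02 and 36 of 81 lay below 0, and the median of the brightest 10% was -0.04. In that setting 58.3% of all entries and 58.8% of the brightest 10% lay below 0. The members' median thus changed sign when that 1 array was left out and its column partner, wild type 3, was kept. Within array columns 1, 2 and 3 the members' medians were -0.21, -0.15 and -0.45, beside -0.05, -0.08 and -0.69 for the brightest 10%. Columns 1 and 2, which do not hold knockout 3, thus also had member medians below 0.

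**Figure D2:**
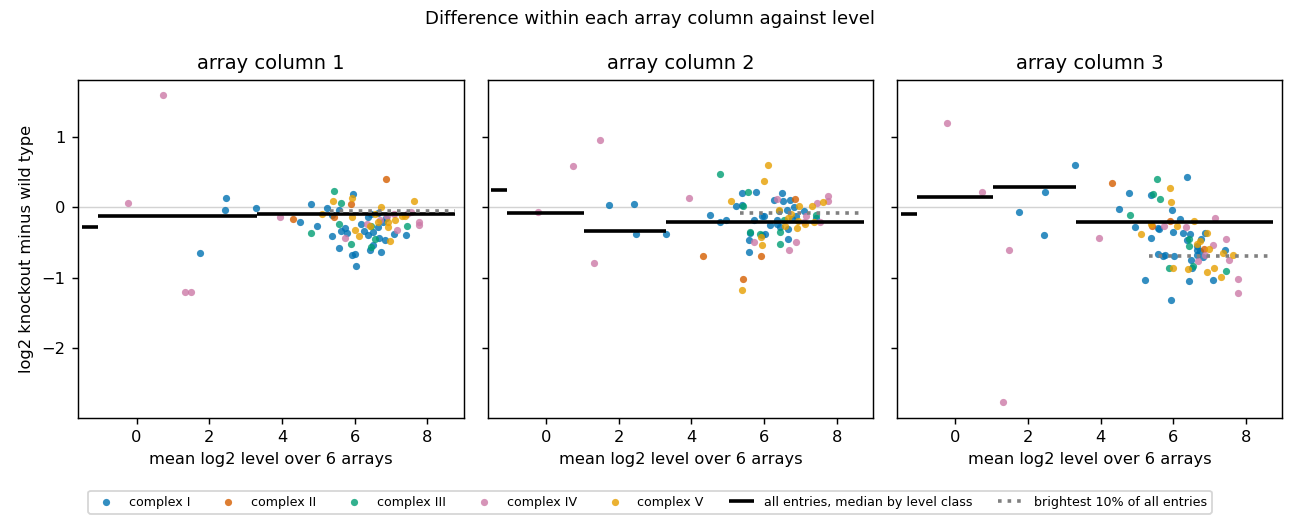
The knockout minus wild-type difference within each array column (vertical axis, log2) is set against the mean level over 6 arrays (horizontal axis, log2), with the 81 subunits as points coloured by complex. Black bars give the median of all entries in each of 4 level classes, drawn from a level of -1.5 upwards, and dotted bars that of the brightest 10%, which is -0.05, -0.08 and -0.69 in columns 1 to 3, so that bright subunits sit lowest in column 3.

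Brighter subunits had the lower differences in column 3, and not in the other columns. Over the 81 members, Spearman's rho between mean level and difference was -0.526 in column 3, -0.066 in column 1 and 0.045 in column 2, as a description of genes that share the same arrays. For 16 members the lowest level was on another array than knockout 3: Atp5a1, Atp5c1, Cox4i2, Cox7a1, Cyc1, Ndufa10, Ndufa8, Ndufb5, Ndufb6, Ndufs1, Ndufv1, Sdha, Sdhc, Uqcrc1, Uqcrc2 and Uqcrfs1. These include catalytic or core subunits such as Ndufs1, Ndufv1, Sdha and Atp5a1, and also accessory or restricted ones such as Ndufa8, Ndufb5 and Cox7a1. Other catalytic or core subunits, among them Ndufs3, Ndufs7, Ndufs8, Ndufv2, Sdhb, Cox4i1 and Atp5b, were lowest on knockout 3. The signal of 3 members, Cox8a, Cox6a1 and Ndufa1, reached the range of the 3 brightest spike-in probes (374188.0 to 577623.3), where a change may be compressed. Without them 71 of 78 members lay below 0, with a median of -0.28. Other members peaked just below that range, such as Atp5g2 at 367954.9 and Cox5a at 359932.7. Leaving out 3 genes thus does not address compression in the rest.

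Complex I, the NADH dehydrogenase, had 36 tested subunits, of which 34 had a difference below 0 (median -0.28) and none passed the test. The 7 core subunits, which carry the flavin and the iron-sulfur clusters, had a median of -0.12, and the 29 accessory subunits one of -0.34. That contrast was not tested. Ndufs1, the largest core subunit with several iron-sulfur clusters, was at 3.14, 3.40 and 3.24 in wild type and 3.13, 3.02 and 3.84 in knockout, with a difference of 0.07 ± 0.44 (SE). Its knockout arrays spanned the wild-type values, and knockout 3 was the highest of all 6. Ndufv1, which binds NADH and FMN, had levels of 6.00, 5.30 and 4.85 in wild type and 5.60, 5.50 and 5.03 in knockout, a difference of -0.01 ± 0.48. Its wild-type arrays alone covered more than the whole knockout range. Ndufs7, the subunit with the last iron-sulfur cluster before ubiquinone, was at 6.72, 7.07 and 6.30 in wild type and 6.38, 7.17 and 5.45 in knockout, a difference of -0.37 ± 0.55, and here knockout 3 was the lowest. Of the other core subunits, Ndufs3, Ndufs8 and Ndufv2 had differences from -0.26 to -0.11.

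Among the accessory subunits of complex I the lowest difference was that of Ndufb7, a membrane-arm subunit of the intermembrane-space side. It was at 6.25, 6.64 and 5.97 in wild type and 5.57, 6.52 and 4.66 in knockout, a difference of -0.70 ± 0.56 (SE, limma adjusted p = 1.0). Knockout 1 and 3 lay below all wild-type arrays and knockout 2 lay among them. Ndufc1 was at 5.58, 6.70 and 5.39 in wild type and 4.996, 6.07 and 4.72 in knockout, a difference of -0.63 ± 0.57, and it was lower in knockout within all 3 columns (-0.58, -0.63 and -0.67). Ndufa5, which sits in the matrix arm, had a difference of -0.64 ± 0.66 and Ndufa3 one of -0.57 ± 0.55. Ndufa8 was the only accessory subunit above 0, at 0.02 ± 0.49. Ndufa4 had a difference of -0.22 ± 0.50.

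Complex II, succinate dehydrogenase, links the citric acid cycle to the chain and is the complex with all its subunits encoded in the nucleus. All 4 differences lay below 0 (median -0.22) and none passed the test. Sdha, the flavoprotein, was at 4.18, 4.71 and 4.31 in wild type and 4.01, 4.02 and 4.65 in knockout, a difference of -0.17 ± 0.44. Sdhb, the iron-sulfur subunit, was at 6.74, 7.24 and 6.60 in wild type and 7.14, 7.36 and 6.01 in knockout, a difference of -0.03 ± 0.51. Sdhb was higher in knockout in columns 1 and 2 (0.40 and 0.12) and lower in column 3 (-0.59), while Sdha went the other way in each column (-0.17, -0.69 and 0.34). Of the membrane anchors that hold the heme and the quinone site, Sdhd was at 5.56, 6.19 and 5.22 in wild type and 5.43, 5.18 and 4.96 in knockout, a difference of -0.47 ± 0.46. Sdhd was lower in knockout in all 3 columns, with the widest gap in column 2 (-1.01), and the genotypes overlapped through knockout 1. Sdhc had a difference of -0.28 ± 0.48, and its second probe one of 0.01. Complex II kept a median below 0 without knockout 3 (-0.30), but it was 0.02 without wild type 2.

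Complex III, the cytochrome bc1 complex, split by subunit. The 5 small subunits Uqcr10, Uqcr11, Uqcrb, Uqcrh and Uqcrq had differences from -0.59 to -0.41, whereas the catalytic subunits Cyc1 and Uqcrfs1 and the core proteins Uqcrc1 and Uqcrc2 lay between -0.06 and 0.14. This grouping was made after the values were seen, none of the 9 genes passed the test, and the small subunits were also the brighter ones, at mean levels of 5.89 to 7.44 against 4.80 to 5.62. Uqcrfs1, the Rieske iron-sulfur protein, was at 5.39, 5.46 and 5.24 in wild type and 5.61, 5.48 and 5.43 in knockout, a difference of 0.14 ± 0.41. It had the smallest range of any member over the 6 arrays and was higher in knockout in all 3 columns (0.23, 0.02 and 0.19). Cyc1, which carries cytochrome c1's heme, was at 5.92, 5.63 and 4.94 in wild type and 5.69, 5.85 and 5.34 in knockout, a difference of 0.13 ± 0.46. Uqcr10 was at 6.20, 6.49 and 5.86 in wild type and 5.67, 6.11 and 4.999 in knockout, a difference of -0.59 ± 0.48 (SE, limma adjusted p = 1.0). The mean over its 3 tested probes was -0.36. Uqcr10 was lower in knockout in all 3 columns, and the genotypes overlapped only through knockout 2. Uqcrq was at 6.74, 7.24 and 6.06 in wild type and 6.18, 6.90 and 5.51 in knockout, a difference of -0.48 ± 0.54 with the genotypes overlapping.

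**Figure D3:**
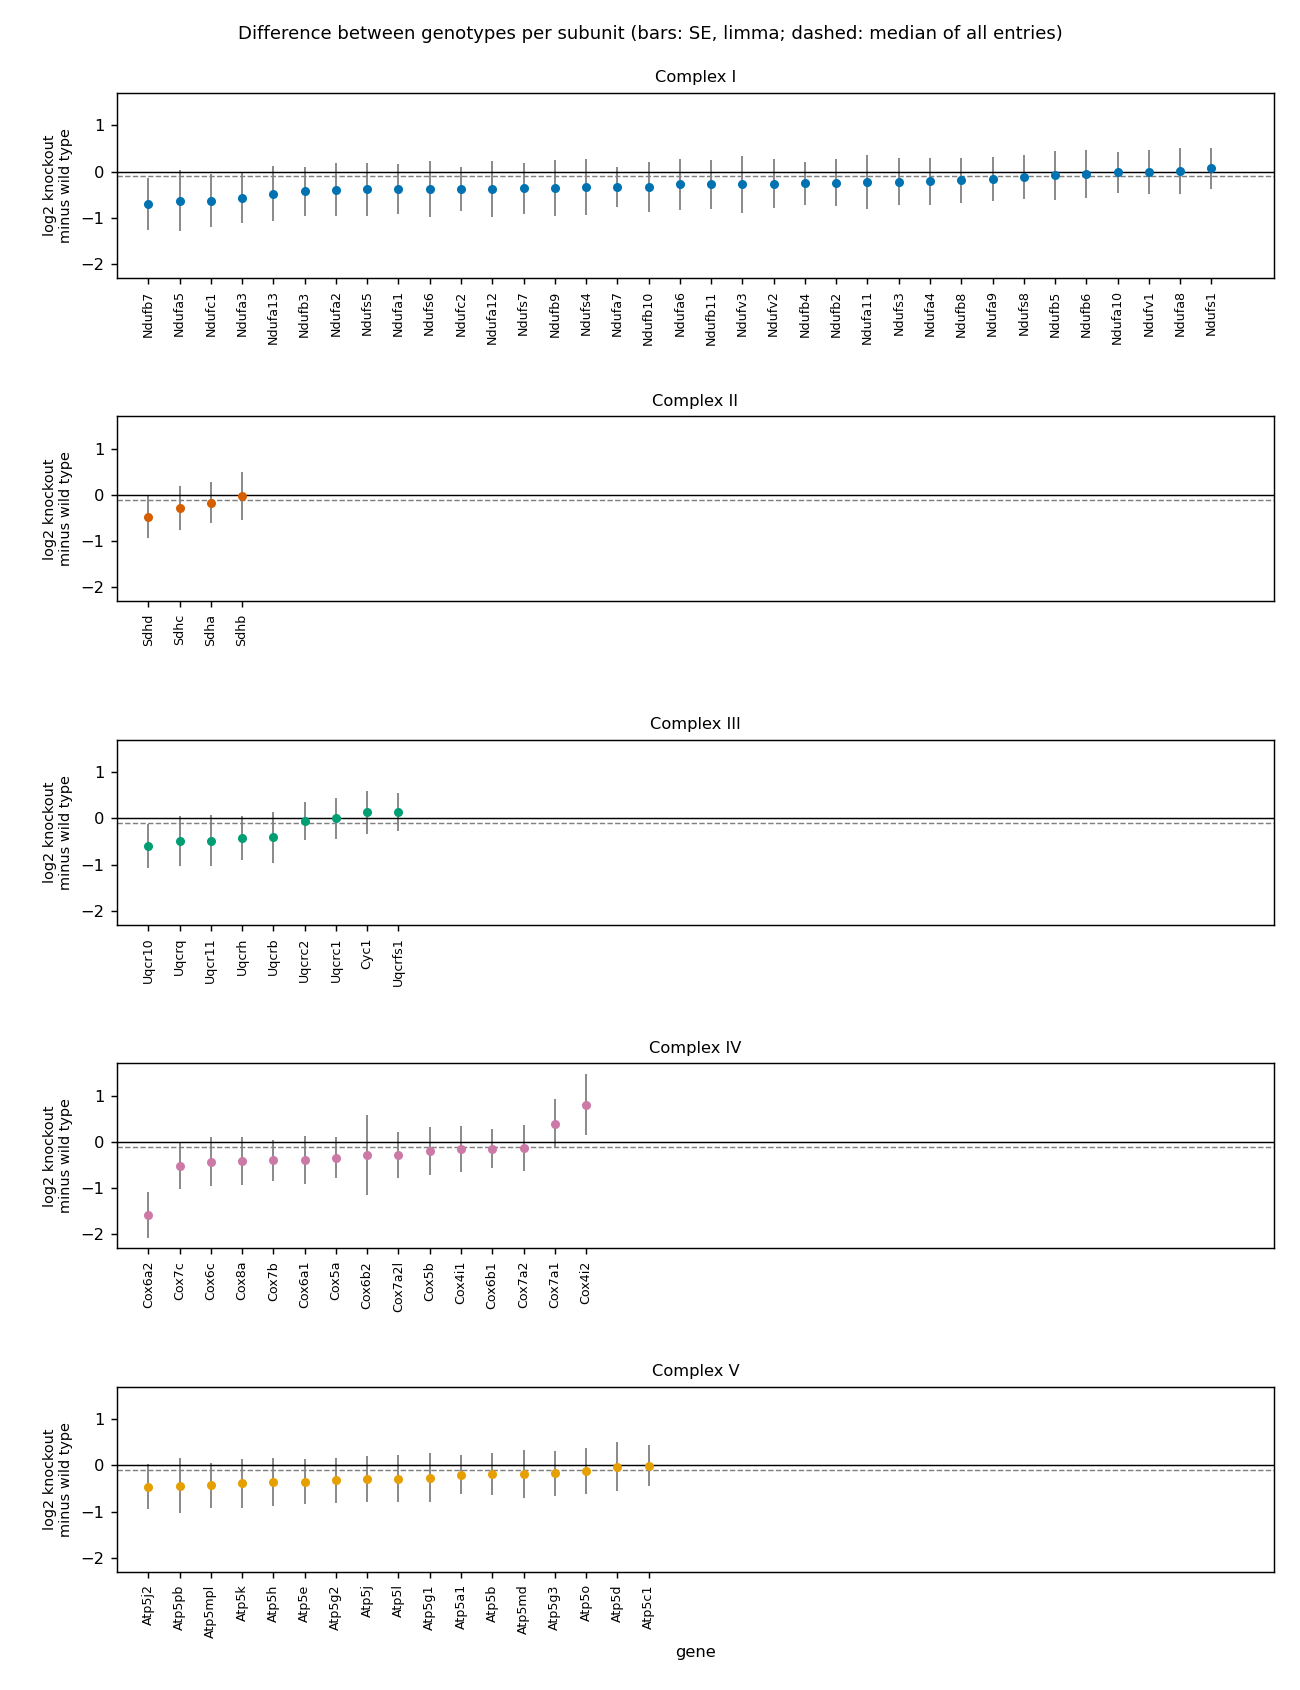
The knockout minus wild-type difference of tested subunits (points, log2) with its limma standard error (bars), in rows by complex and ordered within each. The dashed line is the median of all 18405 entries (-0.11), and Cox6a2 at -1.58 and Cox4i2 at 0.80 stand at either end of complex IV with the common subunits between them.

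Complex IV, cytochrome c oxidase, held the widest range of all complexes, from -1.58 for Cox6a2 to 0.80 for Cox4i2, with 13 of 15 tested genes below 0 and a median of -0.28. Several of its subunits exist as a common form and a form restricted to some tissues or conditions, and the ends of the range were restricted forms. Cox6a2, the form known from heart and skeletal muscle, was at 1.78, 1.85 and 2.71 in wild type and 0.57, 1.06 and -0.05 in knockout. Every knockout array lay below every wild-type array, with 2.11 ± 0.52 against 0.53 ± 0.56 (SD, n = 3 each), or 3.00-fold lower. The difference was -1.58 ± 0.51 (SE, limma adjusted p = 1.0), so the gene did not pass. Cox6a2 was lower in knockout in all 3 columns (-1.20, -0.78 and -2.76). The widest gap was between the P6 mice, a female wild type and a male knockout. Without wild type 3 the difference was -1.28, without knockout 3 it was -1.29, and without both P6 mice it was -0.99, and without wild type 3 or both P6 mice the unadjusted p was above 0.05.

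Cox6a1, the common partner of Cox6a2 and one of the brightest genes here, was at 8.10, 8.07 and 7.72 in wild type and 7.85, 8.16 and 6.70 in knockout. Its genotypes overlapped, with a difference of -0.39 ± 0.51. Taken on the same array, Cox6a2 relative to Cox6a1 was 1.19 lower on the log2 scale in knockout, or 2.28-fold lower, without overlap. Cox6a1 reached the top signal range on 2 arrays, where its changes may be compressed, so the size of this ratio is uncertain. The exact two-sided permutation test gave p = 0.1, the smallest that 3 against 3 arrays allow, or 0.4 after adjustment over the 4 isoform pairs compared. Of 8 striated muscle markers, Ckm, Acta1, Actc1, Tnnt2, Mb and Mylpf were not well above background on any array, and the others, Myh6 and Myh7, were so on 3 arrays each. Plasmacytoid dendritic cell markers were present: 8 of 10 were tested, 4 were below and 4 above 0 (median 0.01), and the list mean was 3.19 to 4.003 in wild type and 3.38 to 3.73 in knockout. Their differences ran from -0.51 to 0.23.

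**Figure D4:**
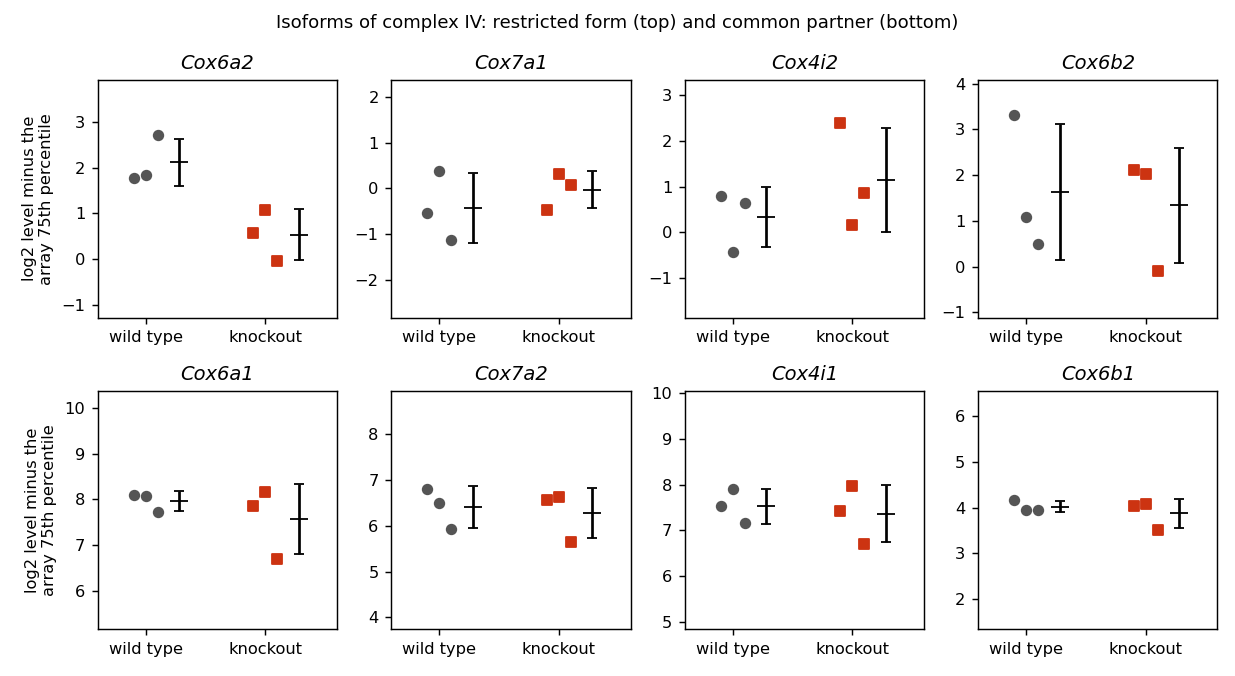
Log2 levels relative to the array's 75th percentile of 4 restricted complex IV isoforms (top) and their common partners (bottom) in 3 wild-type (circles) and 3 knockout arrays (squares), in replicate order from left to right, with mean and SD beside them. Every panel spans the same number of log2 units, and Cox6a2 is the panel where the genotypes do not overlap (2.11 ± 0.52 against 0.53 ± 0.56).

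The other restricted forms of complex IV showed wider spreads within a genotype than between genotypes. Cox4i2, a form linked to low oxygen and to lung, was at 0.79, -0.43 and 0.64 in wild type and 2.38, 0.16 and 0.86 in knockout, a difference of 0.80 ± 0.66 (SE, limma adjusted p = 1.0). Knockout 1 was well above the other 5 arrays, which overlapped. Cox7a1, the heart and muscle form, was at -0.53, 0.39 and -1.13 in wild type and -0.47, 0.32 and 0.07 in knockout, a difference of 0.40 ± 0.53, of which most came from column 3 (1.20). Cox6b2, a form known from testis, was at 3.31, 1.08 and 0.49 in wild type and 2.11, 2.03 and -0.11 in knockout, a difference of -0.28 ± 0.87, with the largest error of any member. Set against their common partners Cox4i1, Cox7a2 and Cox6b1 on the same arrays, the 3 forms differed by 0.96, 0.53 and -0.14 (exact permutation p = 0.4, 0.4 and 0.9, and 0.533, 0.533 and 0.9 adjusted over the 4 pairs). The testis and muscle forms Cox7b2, Cox8b and Cox8c were not well above background.

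The common subunits of complex IV lay close together. Cox4i1, which surrounds the catalytic core, was at 7.52, 7.91 and 7.15 in wild type and 7.43, 7.96 and 6.71 in knockout, a difference of -0.16 ± 0.50, with knockout 2 the highest and knockout 3 the lowest of the 6. Cox5a and Cox5b had differences of -0.34 ± 0.45 and -0.20 ± 0.52. Cox6b1, which faces cytochrome c, was at 4.16, 3.95 and 3.95 in wild type and 4.02, 4.08 and 3.51 in knockout, a difference of -0.14 ± 0.43. Cox7a2, Cox7a2l, Cox7b and Cox8a had differences from -0.42 to -0.13, and Cox7c had -0.52 ± 0.50, though its other probes were at -0.04 and -0.03 and the mean over its probes was -0.20. For Cox7a2l the mean over its probes was -0.13, against -0.27 for the brightest. None of these passed the test.

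Complex V, the ATP synthase, had all 17 subunits below 0 on the probes that stood for them, from -0.46 to -0.01, with a median of -0.29. None passed the test or was free of overlap. The subunit nearest to 0 was Atp5c1, at -0.01, and its other probe was at 0.10. Atp5b, the catalytic beta subunit, was at 6.89, 7.03 and 6.55 in wild type and 6.90, 6.94 and 6.08 in knockout, a difference of -0.19 ± 0.46. Knockout 1 and 2 lay within the wild-type range for this gene and knockout 3 below it. Atp5a1, the alpha subunit, was at 5.94, 6.38 and 5.78 in wild type and 5.81, 5.85 and 5.86 in knockout, a difference of -0.20 ± 0.42, and the 3 knockout values nearly coincided. The 3 genes Atp5g1, Atp5g2 and Atp5g3 encode the same mature c subunit of the rotor ring. Atp5g3 was at 7.72, 7.95 and 7.47 in wild type and 7.81, 8.03 and 6.79 in knockout, a difference of -0.17 ± 0.49. Atp5g2 had a difference of -0.32 ± 0.49 and Atp5g1 one of -0.27 ± 0.53, all smaller than their errors. Without knockout 3 they were 0.21, -0.06 and 0.11 for Atp5g3, Atp5g2 and Atp5g1. The lowest were Atp5j2, the f subunit, with -0.46 ± 0.48, and Atp5pb, of the peripheral stalk, with -0.44 ± 0.60. Atp5mpl followed with -0.43 ± 0.48. Without knockout 3 the median of complex V was 0.03, those of complexes I and IV were 0.05 and 0.04, and that of complex III was -0.11.

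The lists of genes that serve the chain had median differences between -0.18 and 0.06, beside -0.11 for all entries, and none of their genes was called. Of 40 tested assembly factors, 31 lay below 0 (median -0.18), and of 77 mitochondrial ribosomal proteins, which make the mitochondrially encoded subunits, 61 did (median -0.14). The 18 enzymes of the citric acid cycle and pyruvate dehydrogenase had 13 below 0 (median -0.07), the 16 genes of electron entry and ubiquinone synthesis 10 (median -0.10), and the 8 carriers of nucleotides, phosphate and the membrane 7 (median -0.18). The 22 genes of mitochondrial iron-sulfur cluster and heme supply, which make the cofactors of the redox subunits, had 10 below 0 and a median of 0.06. In this list Slc25a37, Fech, Abcb10, Cpox, Ppox and Isca1 were highest on wild type 1, then knockout 1, then knockout 2. The erythroid marker Klf1 had the same order, whereas Nfu1 and Slc25a28 were highest on wild type 2. Whether erythroid cells had a part in this list's values was not tested. Knockout arrays lay above all wild-type arrays for 1 assembly factor, and below them for 1 gene each of electron entry and of cofactor supply, beside 1.14% and 1.74% of all entries. No test compared these lists with the chain.

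The regulators of respiratory gene expression overlapped between genotypes and were not called. Nrf1, whose product binds the core printed above, was at 3.29, 2.97 and 1.32 in wild type and 3.95, 2.33 and 2.13 in knockout, a difference of 0.28 ± 0.70. Gabpa, an ETS factor, was at 0.96, 0.67 and 1.03 in wild type and 0.87, 0.54 and 2.61 in knockout, a difference of 0.45 ± 0.60, and Yy1 had 0.40 ± 0.52. Both were highest on knockout 3, as were 19.39% of all entries, while most subunits were lowest there. All entries in their level class (1.05 to 3.31) had a median of 0.15 on that array, set against each gene's own mean. A link between these factors and the subunits was not tested. Tfam, which packages and transcribes mitochondrial DNA, had a difference of 0.07 ± 0.45, Esrra one of -0.28 ± 0.48 and the coactivator Ppargc1b one of -0.30 ± 0.52. Ppargc1a was well above background on 2 arrays and was not tested. None of the 279 probes of the authors' deposited table belongs to a member.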

How the data were processed

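Signal intensity came from the deposited Agilent scanner files, processed by the authors with Agilent Feature Extraction (per the file headers in version 10.7.3.1, though the submitters' processing notes name 9.1). RNA was amplified and dye-labelled per the labels' protocols. The authors also deposited a table of log2 values for 279 probes, whose centring is not stated, and it was used only to look for members. Flagged and control spots were left out and spots of a probe averaged. Levels are log2 of the processed signal minus the array's 75th percentile. Of 55681 probes, 26407 were named through RefSeq accessions. Probes well above background on at least 3 of 6 arrays were kept (23085, of which 31 with a missing value were dropped), and the brightest probe stood for a gene, giving 18405 entries. For 22 members with several tested probes the median spread of their differences was 0.10. In 5 (Atp5c1, Cox7a2l, Ndufb11, Sdhc and Uqcr10) the probes differed in sign, by up to 1.40 for Ndufb11. Genotypes were compared with limma 3.58.1 (R 4.3.3, lmFit and eBayes, Benjamini-Hochberg adjustment, threshold 0.05). The p-values rest on the spread between arrays within a genotype. With 1 array per mouse, spread between mice cannot be told apart from that of handling and array. The fit was also run on simulated data with independent noise of 1 common SD, so shifts shared by a whole array were not simulated. Isoform pairs were compared by exact permutation (scipy 1.17.1). Genes named singly are the redox and catalytic subunits, the tissue-restricted isoforms with their partners, the 2 members per complex and direction with the smallest p, and listed regulators. Others were named after their values were seen (Ndufa3, Ndufa5, Atp5pb and those in lists of names). The members and lists were chosen with earlier results of these data known. The normexp alternative used the median foreground, chosen after seeing the data, because the mean was not analysed here. Single values of 1 member are not reported here, and it is left out of the plot of differences by subunit.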

Additional observations from a re-analysis of the deposited data

How the results depend on the processing

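Alternatives were quantile normalization, median scaling, normexp background correction, no filter on dim probes, a filter on all 6 arrays, the mean of a gene's probes, the array column as a block, leaving out members in the top signal range, leaving out both P6 mice, and leaving out each mouse. No alternative called a member or any other entry. The members' median difference ran from -0.24 to -0.29 under these settings, apart from quantile normalization (-0.08, with 53 members below 0), the P6 mice left out (-0.19) and single mice left out, where it ran from -0.55 (without knockout 2) to 0.02 (without knockout 3). It was -0.49 without wild type 3 and -0.08 without wild type 2. The count of members below 0 ran from 36 to 76 with single mice left out. Quantile normalization brought the median of all entries to -0.01 and that of the brightest 10% to -0.01. Beside the 53 of 81 members, 51.8% of all entries and 51.5% of the brightest 10% then lay below 0. Members without overlap numbered 4 under quantile normalization (Atp5j2, Cox6a2, Cox7b and Uqcr10) against 3.44% of all entries, 9 without the P6 mice against 18.57%, and from 1 to 24 with single mice left out. The 24 were without knockout 2, against 13.35% of all entries and 28.25% of the brightest 10%. Cox6a2 kept its sign throughout, from -1.85 to -0.99. Of 560 values of the 40 named members under 14 alternatives, 58, in 28 members, had the other sign. The 2 changes of filter and the column block left these members' differences as they were, so no sign could change there. The share of members with the NRF1 core was 20.6% before the start alone. With the array column as a block, which pairs 1 array of either genotype, every difference is the same by construction, and 581 entries instead of 229 had an unadjusted p under 0.05. That count was 808 without wild type 1 and 398 without knockout 3, and the members numbered 1 in each of these. The number of arrays limits what differences could be called.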
